A study of Mus musculus with 61 samples.

Results

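The transcripts of control CD4 T cells in a later window of stimulated culture, 25 to 36 h, against an earlier one, 14 to 20 h, were measured on 10 of the 61 Affymetrix arrays of the series. The arrays were chosen by their titles alone, as every HT_MG-430A array of the control arm (ctrl) at these times. The later window held 4 arrays, at 25, 30 and 36 h with 2 at 30 h, and the earlier window held 6, at 14, 16, 18 and 20 h with 2 each at 16 and 20 h. A second arm (IL27), with cytokine IL-27 added, had 4 and 6 arrays at the same times. All groups were CD4 T cells of C57BL/6 mice, described as naive, cultured with antibodies against CD3 and, as the protocol words it, CD8, each at 1 µg/ml. The protocol text names IL-27 at 25 ng/ml for every sample, ctrl included, so the arm was taken from the title. Times stand in the titles without a unit and were read as hours, and where a time has a pair of arrays, 1 of them ends in d, a suffix that no label explains. Since no label states that different arrays hold different cultures or animals, p-values reflect only how far these arrays scatter, in part perhaps technically and in part through change with time inside a window.

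A naive T cell rests outside the cell cycle with little cytoplasm. After engagement of its antigen receptor it enlarges, builds ribosomes and takes up nutrients, and about a day later it copies its DNA and divides, while genes of effector function begin to be transcribed. Genes of DNA synthesis are typically transcribed at the passage into S phase under E2F factors, and genes of mitosis later, through promoters that often hold a cell cycle homology region (CHR).

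Values are intensities on a linear scale as the authors deposited them, with array medians between 32 and 33.5. Precision is limited by the few arrays. Differences are log2(intensity + 32) at 25–36 h minus the same at 14–20 h, with the standard error (SE) of limma's fit, and genes with a Benjamini-Hochberg adjusted p under 0.05, taken over all 6583 genes tested, count as called. Of these, 2897 were called, 44.0%. There were 1158 genes called higher at 25–36 h (17.6%) and 1739 called lower (26.4%). The median difference of all genes tested was -0.06 on arrays already scaled to a common median. Large changes ran mostly upward: 182 called genes were higher by 1 or more on the log2 scale and 28 lower, and 53 were higher by 2 or more against 2 lower. In 775 genes (11.8%) all 4 later arrays lay above all 6 earlier ones, and in 1155 (17.5%) all lay below.

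A single array stood apart from its window. Across genes the 20 h array without suffix d correlated best with the 25 h array (Pearson r = 0.990) and less with the 18 h array (r = 0.978), while the 20 h array with suffix d correlated best with the 18 h array (r = 0.986). These values describe arrays that share a scale and most of their levels. Among the 210 called genes that changed by 1 or more, this 20 h array lay between both window means in 203, and nearer to the 25–36 h mean in 113. Without it 6562 genes were tested and 3207 called, with 1255 higher (19.1%) and 1952 lower (29.7%). Of 2889 called genes that could be tested both ways, 2834 were also called in the same direction without it. For part of the gene lists the count without this array is therefore also given below. In the IL27 arm the 20 h array without suffix d was likewise closest to its 25 h array (r = 0.990, against 0.979 with the 18 h array).

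The cells carried the defining transcripts of T cells in both windows. Cd3d, a chain of the CD3 complex, averaged 2927 ± 301 at 25–36 h and 2726 ± 343 at 14–20 h, and Cd4 averaged 347 ± 18.2 at 25–36 h and 341 ± 59.6 at 14–20 h (SD, n = 4 and 6). Cd3e was lower by 0.21 ± 0.07 and Thy1 higher by 0.96 ± 0.29. The adjusted p of Cd3e was 0.058 without the 25 h array and 0.052 without the 30 h array with suffix d, and that of Thy1 was 0.065 without the 36 h array. Without the arrays of suffix d neither was called (adjusted p = 0.0998 for Cd3e and 0.07 for Thy1). Cd3e also lost its call in a fit over all ctrl windows (adjusted p = 0.27) and with a slope over time (adjusted p = 0.069). The same held with 20 h and 25 h left out (adjusted p = 0.063). The summed level of 11 measured CD4 T cell markers ran from 14803 to 17492 at 25–36 h and from 15708 to 19655 at 14–20 h. No myeloid marker (10 measured) and no NK cell marker (5 measured) passed the filter on low values, which was set over both windows together. The myeloid sum lay between 148.2 and 161.4 at 25–36 h and between 147.9 and 154.5 at 14–20 h. Of the CD8 markers Cd8a averaged 11.8 at 25–36 h and 11.9 at 14–20 h, below the array medians. Cd8b1 averaged 115.2 at 25–36 h and 135.4 at 14–20 h, above the array medians, and differed by -0.19 (adjusted p = 0.078). It was called lower without the 25 h array (adjusted p = 0.035), with 20 h and 25 h left out (adjusted p = 0.045) and with array weights (adjusted p = 0.037). Among 8 measured B cell markers Ighm alone passed the filter, at 1978 ± 136 at 25–36 h and 1595 ± 371 at 14–20 h, while Cd79a averaged 12.7 in both windows. Ighm was not called (adjusted p = 0.1), but was called higher without the 20 h array (adjusted p = 0.039). Among dendritic cell and MHC class II markers, 4 of 8 were tested and 3 were called lower. Cst3, cystatin C, was lower by 0.35 ± 0.08. Cd74, the invariant chain, went the other way, at 95.5 at 25–36 h and 77.6 at 14–20 h, and was not called (adjusted p = 0.067). It was called higher without the 16 h array with suffix d (adjusted p = 0.027). The same held with arrays of one time averaged (adjusted p = 0.025) and with suffix d as a block (adjusted p = 0.0475). H2-Aa averaged 24.2 at 25–36 h and 50.5 at 14–20 h, and H2-Eb1 25.8 at 25–36 h and 44.7 at 14–20 h, levels close to the array medians. The 3 calls as lower were lost in a fit over all ctrl windows (adjusted p = 0.31 for Cst3, 0.14 for H2-Aa and 0.41 for H2-Eb1), and that of Cst3 also without the arrays of suffix d (adjusted p = 0.057). The sum over all 8 of these markers was 441.9 to 517.0 at 25–36 h, against 535.3 to 712.1 at 14–20 h. Cst3 alone held 251 to 315 of it at 25–36 h and 329 to 404 at 14–20 h, and 4 class II genes (H2-Aa, H2-Ab1, H2-Eb1 and Cd74) together 156 to 169 at 25–36 h and 138.0 to 268 at 14–20 h, with overlap. The erythroid sum was 63.9 to 78.7 at 25–36 h and 53.1 to 63.7 at 14–20 h, with Car2 called higher by 0.28 ± 0.07 at levels near the array median (adjusted p = 0.19 for Car2 in the fit over all ctrl windows). Of its 3 measured genes only Car2 had the higher mean at 25–36 h. Hba-a1 averaged 10.8 at 25–36 h and 11.6 at 14–20 h, and Alas2 17.6 and 18.4, all under the array medians. In these bulk samples fewer cells of a type and less RNA per cell cannot be told apart, and the part of other cell types in the results below was not tested.

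**Figure D1:**
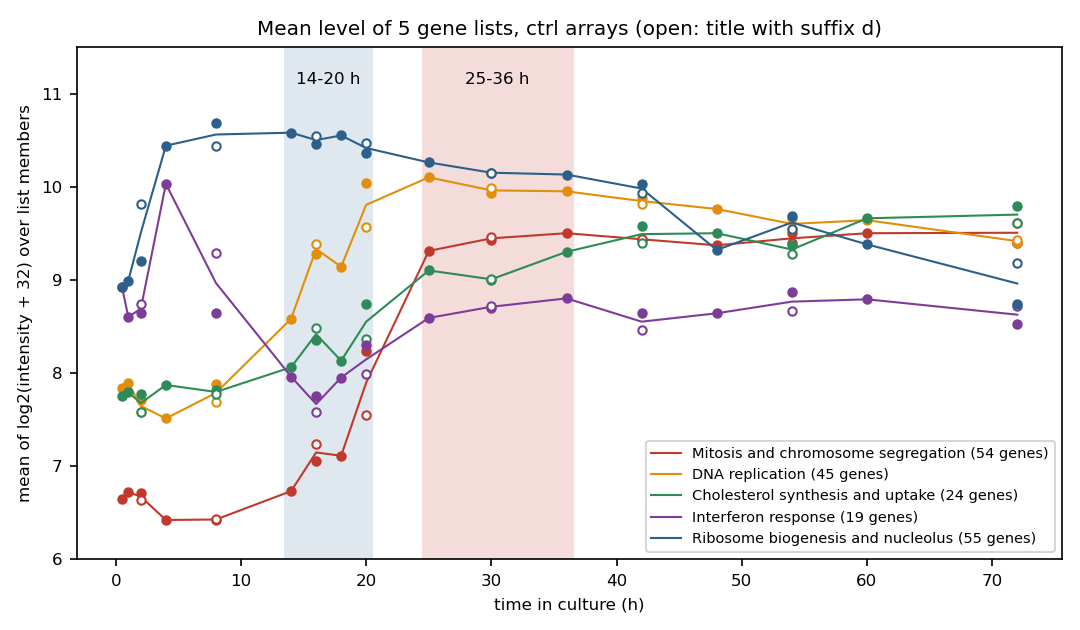
Mean of log2(intensity + 32) over the tested members of 5 gene lists (vertical axis) on each HT_MG-430A ctrl array except that at 12 h, against time in culture in hours (horizontal axis), with filled points for arrays without and open points for arrays with suffix d, lines through the means per time, and both windows shaded. Mitosis genes averaged 9.43 at 25–36 h and 7.32 at 14–20 h, and the filled point at 20 h lies above the rest of its window.

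Mitosis genes had the highest share of called members among the 22 gene lists. All 54 tested members of the list of mitosis and chromosome segregation genes were called higher at 25–36 h, where 17.6% of all genes were. In 53 of them all later arrays lay above the earlier ones, against 11.8% of all genes. The median difference of the list was 2.12 on the log2 scale, with a range of 0.18 to 4.23, beside -0.06 for all genes. Without the 20 h array 53 of 54 were called higher and the median was 2.30. Values of single genes are given in the order 25, 30, 30 with suffix d and 36 h for the later arrays, and as lowest, median and highest for the 6 earlier ones.

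Ube2c encodes the ubiquitin-conjugating enzyme that works with the anaphase-promoting complex. Its intensities were 1980.5, 2720.0, 2526 and 3023 at 25–36 h, against 46.2, 83.3 and 340.4 at 14–20 h. The lowest later array stood far above the highest earlier one, which was the 20 h array, and the difference was 4.23 ± 0.36 (adjusted p = 1.3e-05), the largest of all called genes. Mki67, the proliferation antigen Ki-67 that coats mitotic chromosomes, measured 1599.7, 1703, 1917 and 1846 at 25–36 h, against 31.2, 48.7 and 471 at 14–20 h. Its earlier arrays were at or near the array median apart from both 20 h arrays, and the difference was 3.96 ± 0.48 (adjusted p = 1.2e-04). The cyclins of mitotic entry followed. Ccna2, cyclin A2, measured 2209, 2701, 2299 and 2400.2 at 25–36 h, against 62.6, 131 and 931 at 14–20 h, a difference of 3.56 ± 0.49. Ccnb2, cyclin B2, measured 299, 574, 612 and 638 at 25–36 h, against 14.7, 18.4 and 48.0 at 14–20 h, a difference of 3.27 ± 0.20. For both cyclins no array of one window reached the other (adjusted p = 2.7e-04 for Ccna2 and 1.7e-06 for Ccnb2). The 25 h array gave the lowest Ccnb2 value of its window, whereas Ccna2 on that array was already at the level of the rest.

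Kinases, kinetochore and spindle genes rose with them. Plk1, the kinase that drives mitotic entry and spindle assembly, measured 539, 783, 588 and 792 at 25–36 h, against 26.3, 40.3 and 114 at 14–20 h (3.11 ± 0.22, adjusted p = 4.2e-06). Cenpa, the histone H3 variant that marks centromeres, measured 483, 816, 1037 and 1023 at 25–36 h, against 60.5, 70.4 and 88.7 at 14–20 h (3.0 ± 0.18, adjusted p = 1.7e-06). In Cenpa the 20 h array was the highest of its window but close to the other 5. Cenpe, a kinetochore motor protein, was higher by 2.29 ± 0.15. Birc5, the survivin subunit of the chromosomal passenger complex, was higher by 3.31 ± 0.46, and Hmmr, a spindle-binding protein, by 3.16 ± 0.19. Among the 12 largest increases, probe sets disagreed for another pair. Nusap1, a spindle-associated protein, was higher by 3.55 ± 0.24 on its brightest probe set, but its probe sets spanned 0.13 to 3.55. Cdca3, a trigger of mitotic entry, was higher by 3.61 ± 0.33, and its 3 probe sets spanned -0.01 to 3.61.

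The promoters of mitosis genes often held the CHR word. RefSeq promoter windows (GRCm38.p6, 250 bases before to 50 after a gene's start) were available for 45 of the 54 tested genes, in 48 windows. The word TTTGAA, searched on both strands (TTCAAA on the other), occurred in 32 of these windows (66.7%), against 5878 of 32851 windows of all genes (17.9%) and 7 of 57 windows of ribosome biogenesis genes (12.3%). The words of E2F type, TTTCCCGC and TTTGGCGC on both strands, occurred in 2 of the 48 (4.17%), against 1.56% of all windows. The promoters of the 2 mitosis genes with the largest differences that held the CHR word are shown 5′ to 3′ on the gene's strand, with the word in capitals. The Ube2c window lies at chr2:164769679-164769978 on the plus strand and the Mki67 window at chr7:135716330-135716629 on the minus strand.
Ube2c: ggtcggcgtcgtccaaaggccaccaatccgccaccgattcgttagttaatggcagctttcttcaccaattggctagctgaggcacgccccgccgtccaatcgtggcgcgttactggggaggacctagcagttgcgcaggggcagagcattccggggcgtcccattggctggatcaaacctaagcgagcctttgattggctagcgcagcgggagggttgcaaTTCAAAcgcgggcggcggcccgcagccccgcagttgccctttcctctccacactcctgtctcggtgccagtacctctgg
Mki67: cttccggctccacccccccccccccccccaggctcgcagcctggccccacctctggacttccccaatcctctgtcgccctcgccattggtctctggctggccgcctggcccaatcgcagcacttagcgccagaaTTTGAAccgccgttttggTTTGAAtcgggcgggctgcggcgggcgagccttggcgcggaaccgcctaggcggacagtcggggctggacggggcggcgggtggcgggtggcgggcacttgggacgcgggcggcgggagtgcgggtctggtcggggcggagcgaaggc
The Mki67 window holds the word at 2 places and the Ube2c window at 1. A match describes letters in a window and is neither a measured site nor a cause.

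**Figure D2:**
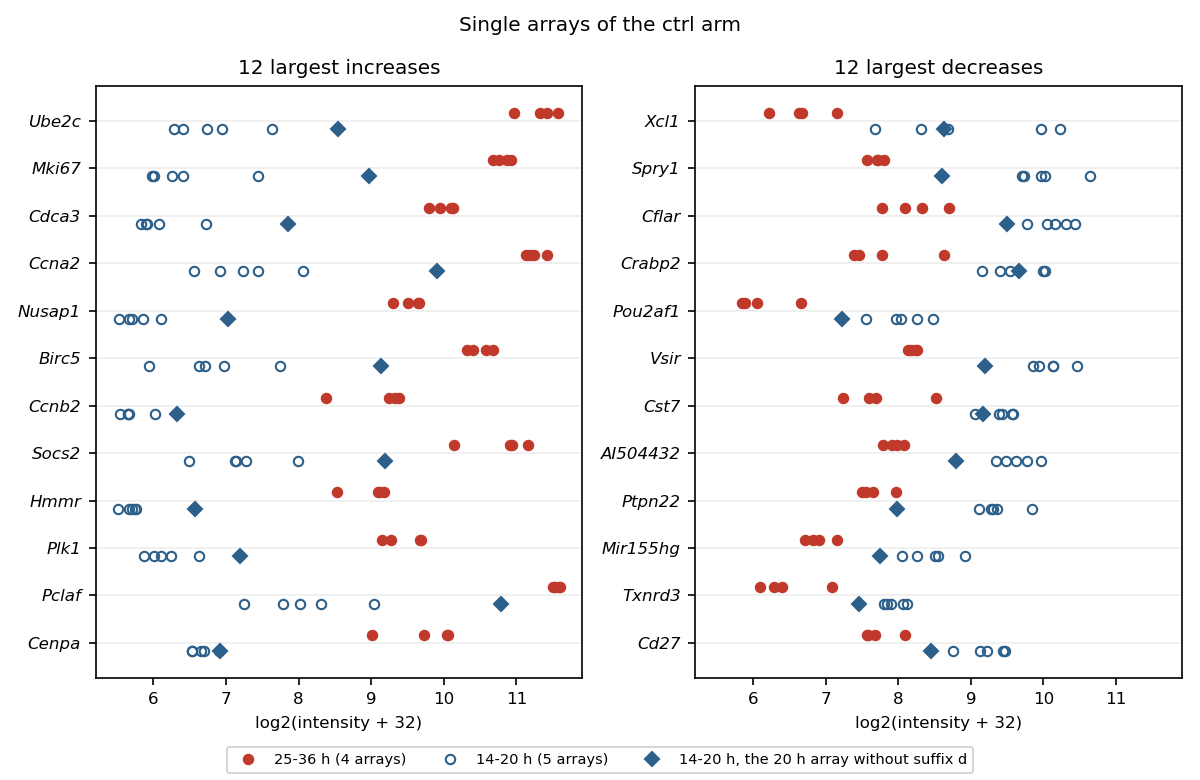
Single-array values, as log2(intensity + 32) on the horizontal axis, of the 12 largest increases (left) and the 12 largest decreases (right) among called genes whose windows do not overlap; red points are the 4 arrays of 25–36 h, open blue circles 5 arrays of 14–20 h and blue diamonds the 20 h array without suffix d. Red and blue do not overlap in any of the 24 genes, and the diamond is the earlier array nearest to the later ones in all 12 increases.

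DNA replication genes showed smaller and less uniform differences, and had a higher list mean at 14–20 h than at 4–8 h. Of 45 tested members 27 were called higher and none lower (17.6% and 26.4% of all genes), with a median difference of 0.50. In 11 all later arrays lay above the earlier ones, against 11.8% of all genes. Without the 20 h array 34 were called higher and the median was 0.64. The range was -0.32 to 2.52. The list averaged 7.69 on the log2 scale at 4–8 h, 9.33 at 14–20 h and 9.99 at 25–36 h, and so had made most of its climb before the later window, while the mitosis list averaged 6.42, 7.32 and 9.43 at these times. With each array left out in turn, between 20 and 34 were called higher and at most 1 lower.

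Enzymes of nucleotide supply were among the increases. Tk1, thymidine kinase, measured 958, 1102, 858 and 1191 at 25–36 h, against 42.0, 137 and 506 at 14–20 h, without overlap (2.52 ± 0.39, adjusted p = 5.5e-04). Dut, the dUTPase that keeps uracil out of DNA, measured 2725, 2515, 3169 and 3021 at 25–36 h, against 1026, 1464 and 2249 at 14–20 h (0.89 ± 0.16, adjusted p = 0.0011). Its 20 h array had already come close to the later level. Rfc5, a subunit of the clamp loader, was higher by 1.19 ± 0.21 (adjusted p = 9.6e-04), and Dbf4, the activator of the origin-firing kinase Cdc7, by 0.92 ± 0.11 (adjusted p = 1.2e-04). Pclaf, a PCNA-binding factor and 1 of the 12 largest increases outside the list, measured 2868, 2936, 3053 and 3081 at 25–36 h, against 120.4, 256 and 1733 at 14–20 h (3.03 ± 0.51, adjusted p = 8.1e-04). It was above the array median on all earlier arrays, and the 20 h array alone held 1733. The subunits of the replicative helicase, Mcm2 to Mcm7, were chosen for mention after their values were seen: none of the 6 was called, and 1 of the 6 without the 20 h array. Mcm7 measured 5446, 4989, 4754 and 4549.8 at 25–36 h, against 2219, 3709.8 and 5426 at 14–20 h, with overlap (adjusted p = 0.067, and 0.0081 without the 20 h array). Mcm6 differed by 0.13 ± 0.16 (adjusted p = 0.52).

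Words of E2F type were frequent in this list instead. Of 47 windows of 38 replication genes, 11 held TTTCCCGC or TTTGGCGC on either strand (23.4%), against 514 of 32851 windows of all genes (1.56%), while the CHR word occurred in 9 (19.1%), against 17.9% of all windows. The 2 replication genes with the largest differences whose window held such a word were Cdc6, the loader of the helicase at origins, and Pola1, the catalytic subunit of the polymerase that primes DNA strands. Cdc6 measured 722, 575, 728 and 622 at 25–36 h, against 49.6, 266 and 803 at 14–20 h, and Pola1 measured 738, 638, 727 and 632 at 25–36 h, against 174, 272 and 575 at 14–20 h. Cdc6 differed by 1.29 ± 0.46 and overlapped between the windows (adjusted p = 0.039), and its adjusted p lay between 0.053 and 0.09 when any 1 of the arrays at 25, 30 (either) and 36 h or at 16 (either) and 18 h was left out. Without the arrays of suffix d Cdc6 was not called either (adjusted p = 0.106). Pola1 was higher by 1.17 ± 0.22 (adjusted p = 0.0014). The Cdc6 window lies at chr11:98907901-98908200 on the plus strand and the Pola1 window at chrX:93632106-93632405 on the minus strand, shown as above with the word in capitals.
Cdc6: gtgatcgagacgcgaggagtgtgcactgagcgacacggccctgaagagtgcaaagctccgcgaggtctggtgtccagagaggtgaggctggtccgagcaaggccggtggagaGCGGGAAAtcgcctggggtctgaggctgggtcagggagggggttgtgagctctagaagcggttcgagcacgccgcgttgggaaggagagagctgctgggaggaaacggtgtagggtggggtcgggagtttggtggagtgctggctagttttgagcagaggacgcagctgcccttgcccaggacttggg
Pola1: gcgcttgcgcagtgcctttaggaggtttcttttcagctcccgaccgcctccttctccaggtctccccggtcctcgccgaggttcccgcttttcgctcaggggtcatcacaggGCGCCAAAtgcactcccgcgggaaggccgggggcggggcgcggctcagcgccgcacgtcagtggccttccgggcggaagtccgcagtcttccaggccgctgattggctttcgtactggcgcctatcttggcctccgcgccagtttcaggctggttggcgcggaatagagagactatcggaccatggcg
In both windows the word stands as its reverse complement, GCGGGAAA in Cdc6 and GCGCCAAA in Pola1. No match in other windows says only that these letters are not in them.

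Among 26 tested genes of the G1 cyclins, CDKs, their inhibitors and E2F factors, 12 were called higher and 4 lower, with a median of 0.28 (12 and 5 of 25 without the 20 h array). Shares of all genes were 17.6% and 26.4%. Inhibitors of cyclin-dependent kinases were among the called increases. Cdkn2d, p19, measured 244, 271, 275 and 315 at 25–36 h, against 67.1, 94.1 and 128 at 14–20 h, without overlap (1.28 ± 0.12, adjusted p = 2.0e-05), and Cdkn2c, p18, was higher by 1.20 ± 0.16. Cdkn1b, p27, was higher by 0.71 ± 0.13 (adjusted p = 0.0011). The D cyclins parted. Ccnd3 measured 946, 1041, 1054 and 1116 at 25–36 h, against 305, 399 and 650.0 at 14–20 h (1.19 ± 0.16, adjusted p = 2.3e-04), whereas Ccnd2 measured 5791, 5681, 5561 and 5296 at 25–36 h, against 5876, 6509 and 7153 at 14–20 h, a small decrease (-0.23 ± 0.05, adjusted p = 0.0036). Myc, the growth regulator induced at activation, measured 2470.3, 2215, 2500.3 and 2309.8 at 25–36 h, against 2607, 3217 and 3782 at 14–20 h. All 4 later arrays were below all earlier ones, by a small amount (-0.41 ± 0.09, adjusted p = 0.0044). E2f6 and E2f5, members of the family that repress, were both called lower. E2f6 fell by 0.64 ± 0.12 and E2f5 fell by 0.51 ± 0.15 on the log2 scale. The adjusted p of E2f5 was 0.056 without the 30 h array that lacks the suffix and 0.066 without the arrays of suffix d. Cdk4 differed by -0.09 and was not called (adjusted p = 0.21). In a fit over all ctrl windows, whose spread includes the changes within the other windows, Myc, Ccnd2 and Cdkn1b were not called (adjusted p = 0.48, 0.27 and 0.084).

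**Figure D3:**
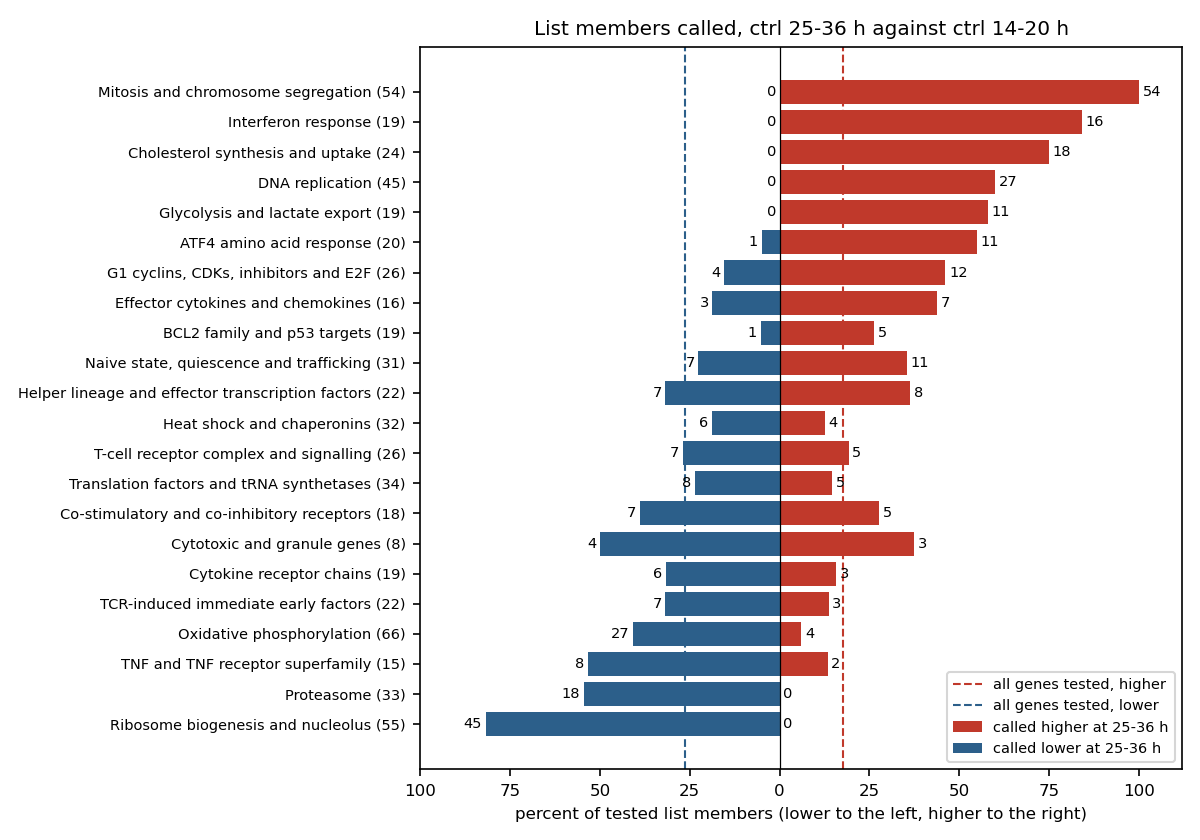
Percentage of tested members (horizontal axis, lower to the left and higher to the right of 0) of 22 gene lists called higher (red) or lower (blue) at 25–36 h against 14–20 h; numbers at the bars are genes, numbers in parentheses the members tested, and dashed lines the shares among all genes tested, 17.6% higher and 26.4% lower. Mitosis genes reach the right edge with 54 of 54, and ribosome biogenesis genes lie on the left with 45 of 55.

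Growth genes moved the other way. Of 55 tested genes of ribosome biogenesis and the nucleolus, 45 were called lower at 25–36 h and none higher, where 26.4% of all genes were called lower, and the count was 45 without the 20 h array too. Decreases were modest, with a median of -0.33 and a range of -0.65 to 0.09. In 36 genes all later arrays lay below the earlier ones, against 17.5% of all genes. Fbl, the methyltransferase fibrillarin, measured 4579, 4374, 4125 and 4196 at 25–36 h, against 5325, 5651 and 5969 at 14–20 h. Its later values were close together and all below the earlier ones (-0.39 ± 0.04, adjusted p = 5.7e-05). Rrp12, an export factor of ribosomal subunits, measured 464, 384, 374 and 381 at 25–36 h, against 533, 643 and 732 at 14–20 h (-0.65 ± 0.09, adjusted p = 3.1e-04). Imp4, of the small-subunit processome, was lower by 0.60 ± 0.08 and Rrp1b fell by 0.55 ± 0.08 on the log2 scale (adjusted p = 0.091 for Rrp1b in a fit over all ctrl windows). Npm1, nucleophosmin, measured 8294, 8129.9, 8029 and 8252 at 25–36 h, against 6357, 7974 and 8274 at 14–20 h, and was not called (adjusted p = 0.23). The list mean was 10.52 at 4–8 h, 10.49 at 14–20 h, 10.17 at 25–36 h and 9.10 at 60–72 h. In the fit over all ctrl windows, which called 1283 of 6583 genes either way, 9 of the 55 were called lower.

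Of 33 proteasome subunits, 18 were called lower and none higher (median -0.14). Psmd8, of the regulatory particle, fell by 0.30 ± 0.06, and Psmb6, a catalytic subunit, fell by 0.31 ± 0.06 on the log2 scale. Of 66 oxidative phosphorylation genes 27 were called lower and 4 higher (median -0.09). Atp5e, a subunit of the ATP synthase, was lower by 0.33 ± 0.05 and Atp5g1 fell by 0.29 ± 0.04, while Cox6a1, of cytochrome oxidase, was higher by 0.14 ± 0.04, a call lost with the mean of its probe sets (adjusted p = 0.088) and without the arrays of suffix d (adjusted p = 0.1). The adjusted p of Atp5e, Atp5g1 and Psmb6 was 0.19, 0.13 and 0.079 in the fit over all ctrl windows. Both medians were near that of all genes. The fit over all ctrl windows called 1283 of 6583 genes either way. In it 1 proteasome gene and 2 oxidative phosphorylation genes were called lower. Of translation factors and tRNA synthetases 5 of 34 were called higher and 8 lower, near the shares of all genes (17.6% and 26.4%). Eif4ebp1, an inhibitor of cap-dependent initiation, was higher by 0.58 ± 0.12 (adjusted p = 0.0024), and Eif6, a factor that keeps free large subunits apart from small ones, was lower by 0.47 ± 0.07 (adjusted p = 4.4e-04, and 0.092 in the fit over all ctrl windows). Among 32 chaperone genes 4 were called higher and 6 lower, no more than the shares of all genes. Of these, Xbp1 and Herpud1, of the endoplasmic reticulum stress response, were higher by 0.75 ± 0.15 and 0.50 ± 0.09, whereas Cct3, of the cytosolic chaperonin, was lower by 0.25 ± 0.05 and was not called in the fit over all ctrl windows (adjusted p = 0.15).

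Lipid genes formed a second rising group. Of 24 tested genes of cholesterol and fatty acid synthesis and transport, 18 were called higher and none lower, with a median of 0.58 (19 of 24 without the 20 h array). All genes had shares of 17.6% higher and 26.4% lower. Scd2, a stearoyl-CoA desaturase that makes oleate, measured 2159, 2483, 3007 and 3553 at 25–36 h, against 149, 313 and 1044 at 14–20 h. Its lowest later value was above the highest earlier one, that of the 20 h array (2.86 ± 0.37, adjusted p = 1.7e-04). Scd1, a second desaturase, was under the array median on all earlier arrays or close to it and measured 126, 213, 212 and 549 at 25–36 h, against 11.9, 15.4 and 32.2 at 14–20 h (2.47 ± 0.27, adjusted p = 5.7e-05). The probe sets of both desaturases gave unequal sizes, from 0.74 to 2.86 for Scd2 and from 0.54 to 2.47 for Scd1. Srebf1, a transcription factor of lipid synthesis, was higher by 0.82 ± 0.09 (adjusted p = 6.2e-05). A list member that acts in the opposite sense to synthesis rose as well. Abcg1, an exporter of cholesterol, measured 169, 272, 258 and 275 at 25–36 h, against 31.0, 50.1 and 84.9 at 14–20 h (1.71 ± 0.16, adjusted p = 2.5e-05). Fasn, fatty acid synthase, differed by 0.01 ± 0.07 and was not called (adjusted p = 0.88).

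Of 19 tested genes of glycolysis, lactate export and the hypoxia response 11 were called higher and none lower (median 0.31). Both counts were the same without the 20 h array. In the fit over all ctrl windows, which called 1283 of 6583 genes either way, 5 were called higher. In the fit of both windows alone, the shares of all genes were 17.6% higher and 26.4% lower, for this list and the next. Egln3, an oxygen-sensing prolyl hydroxylase induced by HIF-1, measured 156, 243, 270.2 and 639 at 25–36 h, against 26.1, 28.8 and 78.4 at 14–20 h. The 36 h array was the highest and the 20 h array stood above the other 5 earlier ones (2.25 ± 0.29, adjusted p = 1.7e-04). Hk1, hexokinase, was higher by 0.65 ± 0.11, and Pdk1, which restrains entry of pyruvate into mitochondria, by 0.72 ± 0.11. Ldha, lactate dehydrogenase, measured 9058, 9405, 8855 and 9499.8 at 25–36 h, against 7098, 7749.7 and 8313 at 14–20 h, a small increase without overlap (0.24 ± 0.04, adjusted p = 0.0011). Pkm, pyruvate kinase, was not called (adjusted p = 0.1). Pdk1 and Ldha were not called in the fit over all ctrl windows (adjusted p = 0.092 and 0.064). Amino acid genes driven by ATF4 were called higher in 11 of 20 and lower in 1. Asns, asparagine synthetase, measured 169, 207, 193 and 388 at 25–36 h, against 64.9, 88.4 and 108 at 14–20 h, highest at 36 h (1.12 ± 0.18, adjusted p = 5.3e-04). Chac1, which degrades glutathione, was higher by 1.01 ± 0.12, Psph, of serine synthesis, by 0.61 ± 0.10, and Cebpb, a partner of ATF4, by 1.10 ± 0.19, while the glutamine transporter Slc1a5 was lower by 0.54 ± 0.09.

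Effector cytokine genes split by gene. Of 16 tested cytokine and chemokine genes 7 were called higher and 3 lower, both with and without the 20 h array. The shares among all genes were 17.6% higher and 26.4% lower. Ifng, the cytokine interferon gamma, measured 403, 859, 865 and 974 at 25–36 h, against 44.7, 81.0 and 144 at 14–20 h. The 25 h array was the lowest of its window and still stood well above every earlier array (2.77 ± 0.26, adjusted p = 2.0e-05). Lif, a cytokine of the IL-6 family, was higher by 1.70 ± 0.19 on its brightest probe set, with its 3 probe sets spanning 0.03 to 1.70, and Lta, lymphotoxin alpha, by 1.36 ± 0.21. Xcl1, a chemokine that attracts cross-presenting dendritic cells, measured 110.4, 70.5, 67.0 and 42.9 at 25–36 h, against 174, 372 and 1171 at 14–20 h, the largest decrease of all called genes (-2.25 ± 0.42, adjusted p = 0.0015). Its spread inside the earlier window was wide, but no earlier array came down to the later ones. Ccl1, another chemokine, was lower by 0.85 ± 0.16. Ccl4, a chemokine with 1336, 1367, 1219 and 1273 at 25–36 h, against 869, 1145 and 1649.7 at 14–20 h, was not called (adjusted p = 0.42). Il2, the T cell growth factor, measured 4270.4, 4469, 4449 and 4779 at 25–36 h, against 3232, 4571 and 5575 at 14–20 h. The later values lay inside the range of the earlier ones and the difference was 0.03 ± 0.13 (adjusted p = 0.88). Csf2, which encodes the cytokine GM-CSF, was higher by 0.61 ± 0.10, but not called in the fit over all ctrl windows (adjusted p = 0.17).

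Factors of effector fate changed in both directions, with 8 of 22 called higher and 7 lower, against 17.6% and 26.4% of all genes. Eomes, a T-box factor of cytotoxic and memory cells, measured 313, 494, 544 and 588 at 25–36 h, against 43.5, 53.9 and 159 at 14–20 h (2.38 ± 0.24, adjusted p = 4.4e-05). The 20 h array stood above the other 5 earlier ones, which lay close together. Tbx21, the Th1 factor T-bet, measured 694, 719.6, 771 and 586 at 25–36 h, against 91.3, 207 and 556 at 14–20 h (1.43 ± 0.35, adjusted p = 0.0064). Its highest earlier value, on the 20 h array, was just under the lowest later one, and the difference was 1.66 without that array. Irf1 was higher by 0.81 ± 0.15. Irf4, a factor whose level follows the strength of receptor signals, measured 2321, 2001, 1946 and 1655 at 25–36 h, against 2837, 3792 and 4414 at 14–20 h, without overlap (-0.90 ± 0.11, adjusted p = 1.5e-04). Stat5a, which relays IL-2 signals, was lower by 0.76 ± 0.13, Stat6, which relays IL-4 signals, fell by 0.50 ± 0.09, and Ahr, the aryl hydrocarbon receptor, fell by 0.90 ± 0.18, although a second Ahr probe set showed -0.04. Batf was higher by 0.48 ± 0.11 and was not called in the fit over all ctrl windows (adjusted p = 0.092).

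Granule genes did not move as a block, with 3 of 8 called higher and 4 lower (17.6% and 26.4% of all genes). Gzmb, granzyme B, measured 285, 428, 441 and 706 at 25–36 h, against 51.6, 141 and 164 at 14–20 h. The 36 h array was the highest and all 4 stood above the earlier arrays (1.62 ± 0.25, adjusted p = 5.2e-04). Serpinb9 and Serpinb6b, intracellular serpins of which the first inhibits granzyme B, were higher by 0.79 ± 0.19 and 1.00 ± 0.19, Serpinb9 with an adjusted p of 0.052 without the arrays of suffix d. Srgn, the proteoglycan that packs granules, was lower by 0.63 ± 0.09 and Lamp1, a lysosomal membrane protein, fell by 0.37 ± 0.06.

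Genes of the interferon response were called higher in 16 of 19 tested members and lower in none (16 and 1 without the 20 h array), with a median of 0.81. Shares of all genes were 17.6% and 26.4%. Psmb9, an interferon-induced subunit of the immunoproteasome, measured 1239, 1502, 1307 and 1629 at 25–36 h, against 349, 404 and 815 at 14–20 h. The later arrays all stood above the 20 h array, itself above the other earlier ones (1.60 ± 0.19, adjusted p = 1.2e-04), and the 3 probe sets of the gene spanned 0.09 to 1.60. Usp18, a brake on interferon receptor signalling, was higher by 0.85 ± 0.09, Trim30a by 1.03 ± 0.13 and Parp14 by 1.00 ± 0.14. Usp18 averaged 27.9 at 14–20 h, under the array medians. Irf9, the DNA-binding part of the interferon-activated complex ISGF3, differed by -0.12 and was not called (adjusted p = 0.25). Another 13 measured list members were too dim to be tested. The list mean was 9.32 at 4–8 h, 7.92 at 14–20 h and 8.70 at 25–36 h on the log2 scale, so the level at 25–36 h lay between those of both preceding windows.

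Among cytokine receptor chains 3 of 19 were called higher and 6 lower, shares near those of all genes (4 and 8 without the 20 h array). Il2ra, the high-affinity IL-2 receptor chain CD25, measured 719.9, 688, 700.2 and 743 at 25–36 h, against 456, 512 and 578 at 14–20 h, without overlap (0.45 ± 0.07, adjusted p = 8.0e-04). Il2rb, the signalling chain shared with IL-15, was higher by 0.94 ± 0.27 with overlap, and had an adjusted p of 0.052 without the 36 h array. Il6st, gp130, the shared chain of the IL-6 and IL-27 receptors, was lower by 0.74 ± 0.13 on its brightest probe set, with another at 0.06, and Ifngr2 was lower by 0.71 ± 0.16. Il10rb, the second chain of the IL-10 receptor, was higher by 0.74 ± 0.14, and Il15ra, which presents IL-15, was lower by 0.57 ± 0.10. Il2ra and Ifngr2 were not called in the fit over all ctrl windows (adjusted p = 0.16 and 0.1). Of 15 TNF and TNF receptor family genes 2 were called higher and 8 lower (median -0.37), against 17.6% and 26.4% of all genes. Cd27, a co-stimulatory receptor, measured 173, 159, 160.5 and 242 at 25–36 h, against 319, 548 and 674 at 14–20 h (-1.34 ± 0.19, adjusted p = 2.9e-04). Tnfrsf9, the receptor 4-1BB, was lower by 0.57 ± 0.11, whereas its ligand Tnfsf9 was higher by 0.71 ± 0.17, with overlap (adjusted p = 0.0061). Tnfrsf1b, TNF receptor 2, was lower by 0.60 ± 0.09, Tnfrsf21 fell by 0.64 ± 0.08, and Tnfrsf13b was higher by 0.47 ± 0.11. Tnfrsf21 averaged 18.1 at 25–36 h, under the array medians. In the fit over all ctrl windows Tnfrsf9, Tnfrsf1b and Tnfrsf13b were not called (adjusted p = 0.24, 0.16 and 0.12).

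Co-stimulatory and co-inhibitory receptors were called higher in 5 of 18 and lower in 7 (5 and 8 without the 20 h array). The shares of all genes were 17.6% and 26.4%. Ctla4, the inhibitory receptor that competes with CD28, measured 719, 692, 767 and 1041 at 25–36 h, against 134, 291 and 559.5 at 14–20 h (1.35 ± 0.26, adjusted p = 0.0018). Its 20 h array was again the highest of the earlier ones. Cd2, an adhesion receptor, was higher by 1.00 ± 0.18, Icos by 0.57 ± 0.15 and Slamf6 by 0.75 ± 0.13 on its brighter probe set. Cd5, an inhibitory receptor of antigen receptor signals, measured 2386, 1984, 1795 and 1605 at 25–36 h, against 3203, 3764 and 4309 at 14–20 h (-0.96 ± 0.10, adjusted p = 4.9e-05). Its later values were all below the lowest earlier one. Cd274, PD-L1, was lower by 1.05 ± 0.15, and Cd6 fell by 0.93 ± 0.14. Vsir, the inhibitory receptor VISTA, measured 267, 257, 273 and 249 at 25–36 h, against 555, 1021 and 1373 at 14–20 h (-1.76 ± 0.18, adjusted p = 4.4e-05).

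Genes of naive state and trafficking were called higher in 11 of 31 and lower in 7 (11 and 9 without the 20 h array). All genes had shares of 17.6% and 26.4%. Klf2, the factor that keeps naive cells quiescent and recirculating, measured 30.6, 29.9, 29.9 and 29.7 at 25–36 h, against 53.8, 139.8 and 207 at 14–20 h. Later values lay under the array median, and no earlier array came down to them (-1.26 ± 0.23, adjusted p = 0.0013). Bach2, a repressor of effector genes, measured 994, 871, 932 and 693 at 25–36 h, against 1429.8, 1691 and 1914 at 14–20 h (-0.94 ± 0.10, adjusted p = 5.7e-05). Foxp1, which maintains quiescence, was lower by 0.52 ± 0.12 with overlap, and Sox4 fell by 0.90 ± 0.17 on its brightest probe set. Selplg, the selectin ligand PSGL-1, was higher by 1.31 ± 0.21, and the chemokine receptors Ccr6 and Cxcr5 by 0.83 ± 0.15 and 0.77 ± 0.09. Ccr6 and Cxcr5 averaged 30.8 and 15.2 at 14–20 h, under the array medians, and 78.2 and 48.9 at 25–36 h. Cxcr5 passed the filter through its later arrays alone.

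In the antigen receptor pathway 5 of 26 genes were called higher and 7 lower, near the shares of all genes. Zap70, the kinase that binds the phosphorylated receptor, measured 1299.7, 1172, 1113 and 1049 at 25–36 h, against 1584, 2301 and 2517 at 14–20 h. All later values lay below the earlier ones (-0.90 ± 0.11, adjusted p = 1.4e-04), but a second probe set gave -0.12. Fyn, a Src family kinase, was lower by 0.48 ± 0.08, and Ptpn22, a phosphatase that dampens the pathway, fell by 1.48 ± 0.27. Cd247, the zeta chain, was higher by 0.42 ± 0.10. The adaptors parted, with Sh2d1a, SAP, higher by 0.61 ± 0.13 and Sh2d2a, TSAd, lower by 0.84 ± 0.13. Of 22 immediate early factors 3 were called higher and 7 lower, also near those shares. Egr1, a first-wave factor of receptor signals, measured 913, 996, 1065 and 943 at 25–36 h, against 355, 553 and 749 at 14–20 h (0.81 ± 0.17, adjusted p = 0.0026), and Jun was higher by 1.05 ± 0.14. Fosl1, a partner of Jun, was lower by 1.11 ± 0.26, and of the NF-κB family Relb fell by 0.79 ± 0.14 and Rel fell by 0.47 ± 0.11. Fosl1 averaged 21.7 at 25–36 h, under the array medians. Nr4a1, a rapid reporter of receptor signals, differed by 0.21 ± 0.17 and was not called (adjusted p = 0.34). The fit over all ctrl windows called 1283 of 6583 genes either way. In it no immediate early factor was called higher and 2 were called lower. Its adjusted p was 0.057 for Egr1, 0.098 for Jun, 0.057 for Relb and 0.33 for Rel. Cd247 was not called in that fit (adjusted p = 0.09), and Fosl1 was not called without the arrays of suffix d (adjusted p = 0.055).

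The remaining large changes lay mostly outside these lists. Socs2, a feedback inhibitor of cytokine receptor signals, measured 1093, 1901, 1935 and 2248 at 25–36 h, against 57.7, 116 and 552 at 14–20 h (3.25 ± 0.41, adjusted p = 1.6e-04). The 25 h array was lowest of its window and the 20 h array highest of the other. Spry1, an inhibitor of receptor signalling to ERK, measured 190.4, 177, 179.5 and 159 at 25–36 h, against 358, 896 and 1568 at 14–20 h (-2.08 ± 0.28, adjusted p = 2.0e-04). Cflar, the caspase-8 inhibitor c-FLIP, measured 383, 289, 240.2 and 188 at 25–36 h, against 693, 1065 and 1352 at 14–20 h (-1.81 ± 0.19, adjusted p = 5.7e-05), and its 4 probe sets were all lower, from -1.81 to -0.56. In both genes the later arrays stood apart from the earlier ones. Pou2af1, a co-activator of octamer-binding factors, was lower by 1.81 ± 0.23, and Mir155hg, the host transcript of miR-155, fell by 1.44 ± 0.18. Crabp2, a carrier of retinoic acid, was lower by 1.81 ± 0.23, Cst7, the protease inhibitor cystatin F, fell by 1.61 ± 0.20, Txnrd3 fell by 1.40 ± 0.17 and AI504432 fell by 1.55 ± 0.18. Among 19 genes of the BCL2 family and p53 targets 5 were called higher and 1 lower (3 and 3 of 18 without the 20 h array). For all genes the shares were 17.6% and 26.4%. Casp8 was higher by 0.61 ± 0.13, Gadd45g by 0.62 ± 0.10, and Bcl2l11, the death-promoting protein BIM, was lower by 0.51 ± 0.13, with overlap. Gadd45g averaged 29.8 at 14–20 h, under the array medians. In the fit over all ctrl windows Bcl2l11 and Gadd45g were not called (adjusted p = 0.098 and 0.08), and without the arrays of suffix d the adjusted p of Bcl2l11 was 0.053. Of regulatory T cell markers Nrp1 and Izumo1r were called higher (0.73 ± 0.08 and 0.87 ± 0.16), while Foxp3 averaged 22.5 at 25–36 h and 20.3 at 14–20 h and was not tested.

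**Figure D4:**
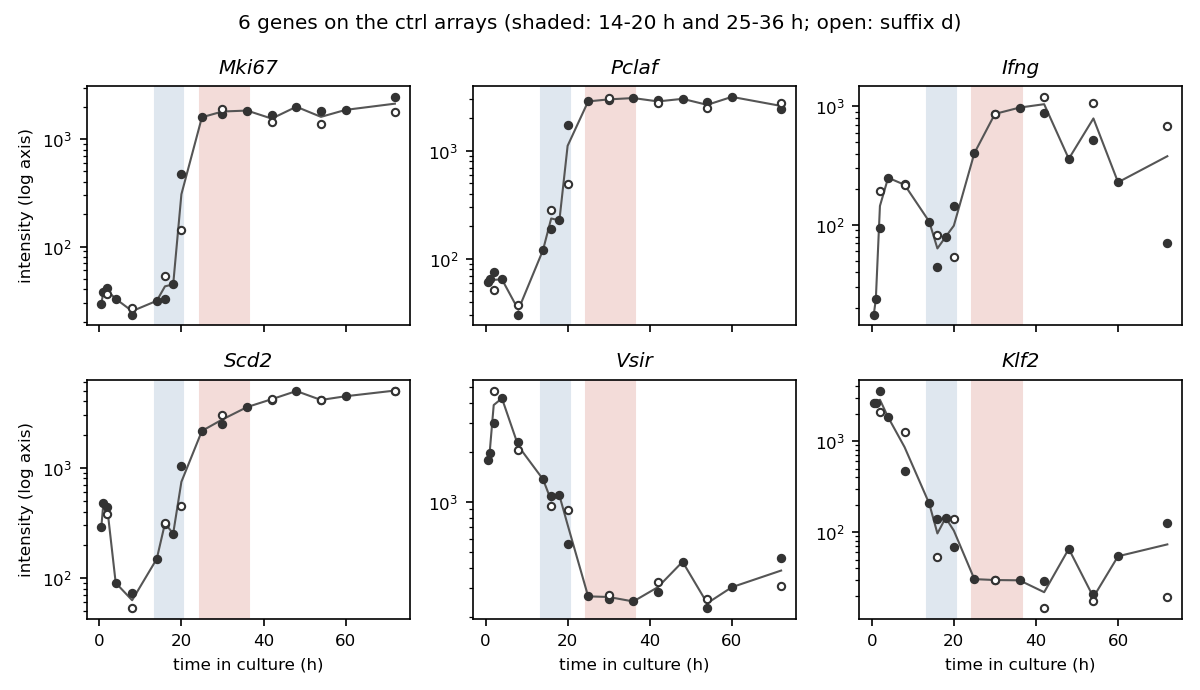
Intensity (vertical axis, log scale) of 6 genes on each HT_MG-430A ctrl array except that at 12 h, against time in culture in hours (horizontal axis), with filled points for arrays without and open points for arrays with suffix d, lines through the means per time and both windows shaded. Mki67, Pclaf and Scd2 climb between the shaded windows and stay high, Ifng dips at 14–20 h before its later peak, and Vsir and Klf2 are lower at 14–20 h than at 4–8 h and level off at 25–36 h.

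Set into the ctrl course, the genes followed different paths, given here as window means without a test. Mki67 averaged 27.5, 129, 1766, 1668 and 2052 at 4–8, 14–20, 25–36, 42–54 and 60–72 h, a step that came between the windows and then held. Gzmb averaged 48.3, 129, 465, 3680.5 and 7174 at the same times, so that the increase described above was the first part of a longer climb. Ifng averaged 229, 85.2, 775, 804 and 329, with its highest mean in the 42–54 h window and a low point at 14–20 h. Eomes averaged 69.7, 70.5, 485, 345 and 482 and stayed above its early level. Among the genes that fell, Xcl1 averaged 1992, 558, 72.7, 47.8 and 34.4, a steady decline from a peak at 4–8 h. Crabp2 averaged 339.6, 777, 208, 655 and 658 and Cst7 214, 633, 197, 405 and 599, so both were lower at 25–36 h than at any of the neighbouring windows. Il2 averaged 8316, 4487, 4492, 6008 and 1411, level across both windows compared, and lowest of these windows at 60–72 h. On the Mouse430A_2 arrays, scaled apart and with 1 ctrl array a time, Mki67 was 193, 54.6, 170.4 and 5625 at 0, 4, 16 and 48 h, Gzmb 42.7, 52.8, 125 and 4002 and Xcl1 58.9, 371, 87.3 and 48.6.

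The same windows in the IL27 arm show where the change in ctrl cells differed from that in cells given IL-27. The test was the change in ctrl minus the change in IL27 over 20 arrays, with 6577 genes tested. It called 77 genes (1.17%), 62 with a more positive change in ctrl (0.943%) and 15 with a more negative one (0.228%). With the ctrl and IL27 arrays of the same time and suffix taken as 10 pairs, a fit added after seeing the data, 514 genes were called (7.82%), 226 with a more positive change in ctrl (3.44%) and 288 with a more negative one (4.38%), among them the 77 with the same sign. No member of the mitosis or DNA replication lists was called without the pairs, and with them 7 of 54 mitosis and 3 of 45 replication genes were called, all with a more negative change in ctrl. Mki67 changed by 3.96 in ctrl and 4.03 in IL27 (difference of the changes -0.07 ± 0.69, SE). Of 19 interferon response genes 12 were called, and 16 with the pairs, all with a more positive change in ctrl. Of 24 genes of the cholesterol and lipid list none was called without the pairs. With them 9 were, all with a more positive change in ctrl. Of 20 ATF4 genes none was called without the pairs, and 8 were with them, all with a more negative change in ctrl. Only 7 genes were called without the arrays of suffix d, which leaves 7 arrays an arm, 48 with the arrays of one time averaged, 45 without the ctrl 30 h array with suffix d, 51 without the IL27 30 h array without it, and 92 without both 20 h arrays that lack the suffix.

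T-box and interferon genes led the difference. Eomes measured 312.6, 518.9 and 587.8 (lowest, median, highest) at 25–36 h and 43.5, 53.9 and 158.7 at 14–20 h in ctrl. In IL27 it measured 61.5, 100.1 and 138.0 at 25–36 h and 47.3, 57.3 and 126.0 at 14–20 h. Its change was 2.38 in ctrl and 0.31 in IL27, a difference of 2.08 ± 0.36 (adjusted p = 0.0032), and only in ctrl did the windows not overlap. Tbx21 went in opposite directions. It measured 585.6, 706.7 and 771.3 at 25–36 h and 91.3, 207.4 and 556.4 at 14–20 h in ctrl, against 951.6, 1201.6 and 1474.0 at 25–36 h and 1688.7, 1861.3 and 1977.0 at 14–20 h in IL27. Its level was therefore lower in ctrl than in IL27 in both windows, on every array, while the changes drew the arms together (difference of the changes 2.05 ± 0.40, adjusted p = 0.0082). Interferon-induced GTPases differed too. Iigp1 changed by 1.96 in ctrl and -0.04 in IL27 (1.99 ± 0.37, adjusted p = 0.0056), Irgm1 by 1.11 in ctrl and -0.68 in IL27, and Gbp10 by 1.03 in ctrl and -0.71 in IL27. Ifi205, of the interferon-inducible p200 family, changed by 1.13 in ctrl and -0.88 in IL27 (difference of the changes 2.01 ± 0.26, adjusted p = 5.9e-04), and was the single one of the 12 genes named here that kept its call under all 31 alternatives. With the pairs all 12 were called.

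Among the genes named, those with a more negative change in ctrl had smaller differences. Bcl2l11 changed by -0.51 in ctrl and 0.74 in IL27 (difference of the changes -1.25 ± 0.19, adjusted p = 0.0012). It measured 487.4, 526.9 and 587.2 at 25–36 h and 580.5, 785.7 and 1061.4 at 14–20 h in ctrl, against 680.0, 897.8 and 950.7 at 25–36 h and 420.4, 493.2 and 623.1 at 14–20 h in IL27, so the order of the arms turned between the windows. Hopx, a homeodomain-only protein of effector T cells, changed by -0.38 in ctrl and 0.67 in IL27 (-1.05 ± 0.16, adjusted p = 0.0013). Cst7 changed by -1.61 in ctrl and -0.45 in IL27 (-1.16 ± 0.28, adjusted p = 0.041), and lost its call without any of 14 of the 20 arrays (adjusted p up to 0.13). Hacd1, Galnt3 and Myh9 were called with differences of -0.69, -0.61 and -0.55, and lost their calls without 16, 13 and 12 of the 20 arrays in turn, in this order.

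**Figure D5:**
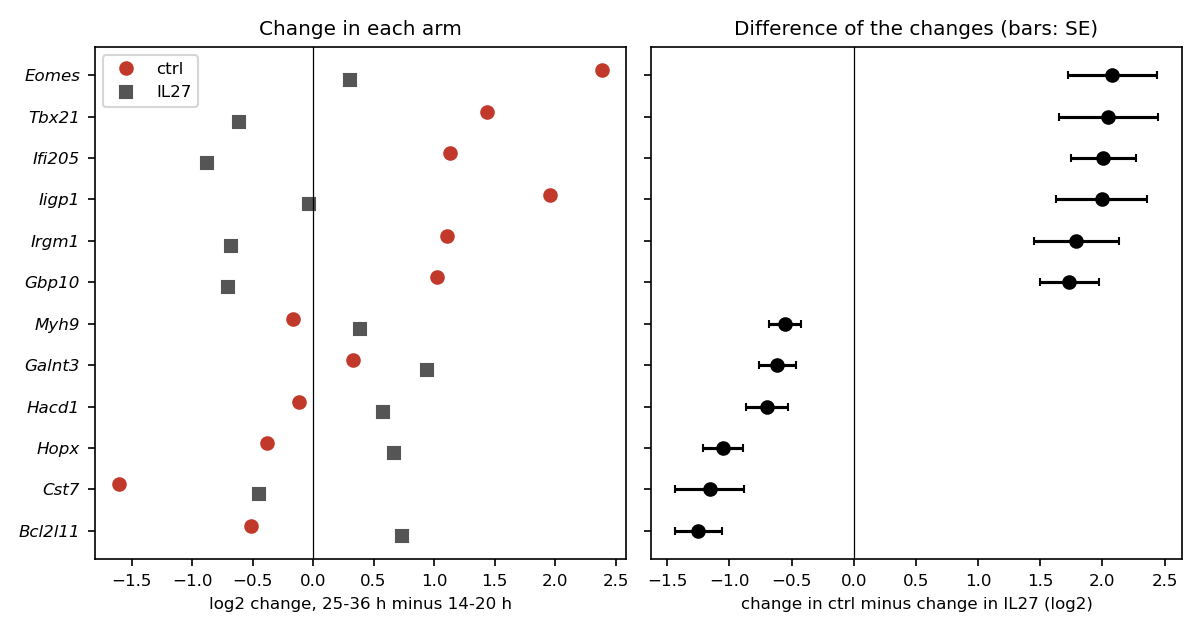
Left, log2 change as 25–36 h minus 14–20 h (horizontal axis) of the 12 genes named for their difference between the arms, with red points for ctrl and grey squares for IL27; right, the change in ctrl minus the change in IL27 with bars of 1 SE. Eomes to Gbp10 changed more positively in ctrl, and Myh9 to Bcl2l11 more negatively.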

How the data were processed

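Per the labels, total RNA was hybridised to Affymetrix HT_MG-430A arrays, and the authors deposited 1 table of intensity values on a linear scale, with MAS5 the only tool in the submitters' processing notes. MAS5 gives 1 value per probe set from perfect-match and mismatch probes. Array medians of 32.0 to 33.5 were taken to mean scaling by the authors. Low values of MAS5 vary strongly between arrays, and no source used here says how scans were handled. Mouse430A_2 arrays are in a separate table and entered no fit, and their values are only given beside these.

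Of 22626 probe sets, 20173 had 1 gene in the platform annotation, 942 several and 1511 none, and only the first were used. Symbols were updated through their gene numbers to RefSeq GRCm38.p6. Each of 12291 genes was represented by its brightest probe set. No 2 arrays were identical. Genes were tested where 4 or more of 10 arrays (8 of 20 for both arms) exceeded the median of the same array. As the windows held 4 and 6 arrays, a gene dim in one window could pass through the other alone. log2(intensity + 32) was fitted with limma 3.58.1 (lmFit and eBayes with an intensity trend, R 4.3.3), and p-values were adjusted by Benjamini-Hochberg over all genes tested. The procedure was run on simulated data with independent noise, which hold no shared shift of an array and no change inside a window. The pseudocount of 32 understates changes of dim genes.

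Arrays were grouped by title into ctrl and IL27 and into windows. The comparison of arms was a difference of differences. Its fit took no account of pairs. Deviations from the group means of ctrl and IL27 arrays that share a time and suffix correlated across genes at 0.085 to 0.869 over 10 pairs, and in 9 of 10 the partner gave the highest correlation in the window, so a fit with these pairs as a block was added. The pairing comes from the titles, which do not say that paired arrays share cells or a day. Of 868 entries on the gene lists 781 were measured, and the rest were not analysed here. The genes named were the 12 largest differences each way without overlap, up to 4 called members each way and up to 2 uncalled ones in each list, and the 6 largest each way between the arms, from which the text takes a part. The members, lists and rules were chosen with earlier results of these data known. Alternatives were the pseudocount, the filter, quantile normalization, the mean of probe sets, leaving out arrays, averaging or blocking on the suffix d, array weights, a slope over time and a fit over all ctrl windows. The single HT_MG-430A ctrl array at 12 h was in no window and in no fit.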

Additional observations from a re-analysis of the deposited data

Results flagged for a closer look

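In 34 groups of arrays, out of 302 tested over 151 named genes, the highest or lowest array stood further from the rest than Dixon's critical value at 95% allows; chance flags about 1 in 20 groups, and genes on an array are not independent. In 22 of them the array was the ctrl 20 h array without suffix d within the 14–20 h window. Its intensities were 471.2 for Mki67, 930.7 for Ccna2, 98.6 for Nusap1, 530.6 for Birc5, 62.9 for Hmmr and 200.3 for Cdca3 among mitosis genes. Those of S phase and G1 genes were 1732.6 for Pclaf, 505.5 for Tk1, 575.4 for Pola1 and 108.9 for Cdkn2c. Those of signalling, effector and interferon genes were 552.2 for Socs2, 158.7 for Eomes, 405.3 for Batf, 479.2 for Serpinb9, 815.1 for Psmb9, 897.0 for Iigp1, 156.8 for Jun and 771.8 for Casp8. Those of lipid and hypoxia genes were 32.2 for Scd1, 1044.5 for Scd2 and 78.4 for Egln3. In these 21 genes the array was the highest of its window, and in Tnfrsf1b it was the lowest, at 190.5.

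The 25 h array was the lowest of its window for Hmmr (337.4), Trim30a (386.1) and Abcg1 (169.0) and the highest for Rrp12 (463.7). The 36 h array stood apart for Fyn (1014.3), Eif4ebp1 (930.0) and Casp8 (983.7). In the earlier window the 14 h array stood apart for Ccl1 (193.2), the 16 h array without suffix d for Tnfrsf9 (681.8) and Cd3d (3393.2), the 16 h array with suffix d for Cct3 (5076.9), and the 20 h array with suffix d for Npm1 (6357.3).

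The change between the windows differed between the arms in 12 named genes, by limma's test of the difference itself, as the change in ctrl minus the change in IL27 on the log2 scale. It was 2.08 for Eomes, 2.05 for Tbx21, 2.01 for Ifi205, 1.99 for Iigp1, 1.79 for Irgm1 and 1.73 for Gbp10. It was -0.55 for Myh9, -0.61 for Galnt3, -0.69 for Hacd1, -1.05 for Hopx, -1.16 for Cst7 and -1.25 for Bcl2l11.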

How the results depend on the processing

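Against 2897 genes called, 1767 were called without the arrays of suffix d, and 1283 in the fit over all ctrl windows. With each array left out in turn the count ran from 2285, without the 30 h array with suffix d, to 3207, without the 20 h array without it, and under the other alternatives from 2667 to 3406. Leaving out both 20 h arrays, an alternative chosen after seeing the data, gave 3348. Of 136 named genes called, 99 kept call and sign under those of the 24 alternatives in which they were tested. An alternative in which a gene failed the filter on low values was not counted against it. Differences that changed sign belonged to genes that were not called. With each array left out in turn they ran from -0.0043 to 0.116 for Cd4, from -0.0017 to 0.2 for Mcm6, from -0.0243 to 0.057 for Fasn and from -0.062 to 0.094 for Il2, negative without the 14 h array (Cd4, Mcm6), the 18 h array (Fasn, Il2), the 16 h array that lacks the suffix (Il2) or the 36 h array (Il2), and array weights gave -0.0063 for Cd4. Against 77 genes with a difference between the arms, 7 were called without the arrays of suffix d and 48 with the arrays of one time averaged. With each array left out in turn the count ran from 45 to 90, and it was 51 without the IL27 30 h array that lacks the suffix. The other alternatives gave 72 to 92 genes, except that 514 were called with ctrl and IL27 arrays of one time and suffix as pairs, a replicate block added after seeing the data. Of the 12 genes named for this difference 1, Ifi205, kept its call under all 31 alternatives, and none changed sign. The cause of these shifts was not tested, except that leaving out arrays leaves fewer of them.

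Between the windows no paired analysis was possible because the titles share no replicate numbers; with the suffix d as a block 2740 genes were called between the windows and 77 between the arms. Counts of list members without the 20 h array and in the fit over all ctrl windows were chosen after seeing the data. With 4 and 6 arrays that cover 3 and 4 times, change inside a window adds to the spread. The depth of these values is signal over background: a dim gene has no reliable order, and 6583 of 12291 genes were tested.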
